A study of Mus musculus with 138 samples.

Results

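The chaperonin CCT, also called TRiC, is a cytosolic folding machine whose subunits are encoded by 8 separate genes. The genes described here are those 8, taken by name from the counts of single mouse embryos at the 2-cell stage: Tcp1 (the alpha subunit), Cct2 (beta), Cct3 (gamma), Cct4 (delta), Cct5 (epsilon), Cct6a (zeta), Cct7 (eta) and Cct8 (theta). They are 8 of 25900 genes in the deposited tables, and all 8 passed the filter on low counts in every comparison. CCT stacks a pair of rings, each with a single copy of every subunit, so the complex needs all of its subunits in equal amounts. It uses ATP to fold actin, tubulin and many proteins with WD repeats. Prefoldin and the cytosolic Hsp70 system hand unfolded chains to it, and phosducin-like proteins act as its cofactors. In the cleaving embryo its clients build the spindle, the cell cortex and parts of the cell cycle machinery.

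The study removed the chromatin remodelling ATPase SMARCA5 in the egg by gene deletion or in the zygote by protein degradation, and measured RNA at the stage when the embryonic genome is activated. In the first experiment, libraries labelled Smarca5 +/- came from heterozygous embryos of females with a maternal knockout mated to wild-type males, and are called maternal deletion (n = 28). They were compared with libraries labelled Smarca5 +/+, called wild type (n = 22). The titles of both groups name matKO females, so the labels do not tell the mothers apart, and the embryo's own genotype cannot be told apart from maternal loss. In the TrimAway experiment, wild-type zygotes were injected so that an antibody directs its protein target to TRIM21 for degradation. Its groups are anti-SMARCA5 (n = 31), a control IgG (n = 20) and embryos labelled as not injected (n = 15), all collected at the same stage. The promoter that drives the deletion in the oocyte is not given in the sources used here. Each replicate number is a pool of embryos that the design text calls a technical replicate, so p-values measure the spread between single embryos of few pools.

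The 116 libraries used held between 109007 and 12004992 counts, with a median of 1469197. The median was 545264 in wild type and 1618485 in the maternal deletion. Levels are given as CPM, a gene's count scaled to a library total that is the same for all libraries, after TMM scaling, which corrects the library total for differences in composition and was done within each experiment, so levels are not compared between the experiments. Scaling by library totals alone moved the median log2 fold change of all genes from 0.18 to -0.04 in the deletion comparison, from 0.13 to -0.29 for anti-SMARCA5 against uninjected, from 0.04 to -0.10 against IgG and from 0.03 to -0.23 for IgG against uninjected. Smarca5 RNA had a median of 94.4 CPM (3.31 to 322) in the maternal deletion and 362 CPM (153 to 794) in wild type. The library labelled maternal deletion in well A04 of replicate 2 goes against its label: its Smarca5 level was 319 CPM, and Gdf9, an oocyte growth factor whose RNA is stored in the egg, was at 22.4 CPM against a median of 4757 CPM in its group. Well H09 of replicate 1, also labelled maternal deletion, had a similar Smarca5 level (322 CPM), with Gdf9 at 1076 CPM. Because TrimAway removes protein, those labels cannot be checked by the level of Smarca5 RNA. Trim21 RNA had a median of 1313 CPM in anti-SMARCA5 embryos. The anti-SMARCA5 library in well C02 of replicate 2 goes against its label, with Trim21 at 0 CPM where every other one was at 292 CPM or more. The IgG pools differed: Trim21 was at 0 CPM in all 10 libraries of replicate 1 and above 0 in 8 of 10 of replicate 3, of which 5 ran from 546 to 2061 CPM. The labels do not say which IgG embryos received Trim21, so the IgG control is not the same in the pools, and this cannot be told apart from pool in the comparisons with IgG.

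The 8 genes lie on 8 chromosomes, at GRCm38 positions 17:12915701-12925067 (Tcp1, plus strand), 10:117050998-117063814 (Cct2, minus), 3:88297116-88321767 (Cct3, plus), 11:22990519-23003780 (Cct4, plus), 15:31590800-31601847 (Cct5, minus), 5:129787439-129845820 (Cct6a, plus), 6:85451505-85468477 (Cct7, plus) and 16:87483326-87495873 (Cct8, minus). For 6 of the 8, the annotation places the start of an opposite-strand gene within 1000 bases of their own start, against 18.5% of all 21951 protein-coding genes. These neighbours are Mrpl18 at Tcp1, Tsacc at Cct3, Fam173b at Cct5, Psph at Cct6a, Pradc1 at Cct7 and the noncoding B130034C11Rik at Cct8. Cct2 and Cct4 have none. The annotated bodies of Tcp1, Cct6a and Cct7 overlap their neighbour by 645, 452 and 457 bases, Tcp1 also overlaps Acat3 by 1255 bases, and Cct8 overlaps Usp16 by 192 bases at its far end. Whether the counting used strand is not given in the sources used here, so reads in those stretches cannot be told apart.

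RefSeq promoter windows (build GRCm38.p6) were at hand for 7 of the 8 genes. That of Tcp1, at 17:12916079-12916378, lies inside the gene position given above, so its RefSeq start is not the start used for neighbours and overlaps. In the 250 bases before the start, the first windows of all 7 held a GC box (GGGCGG on either strand), which 32.9% of the 27025 genes with a window hold. The first windows of the 7 held 14 to 24 CG dinucleotides, against a median of 6 (quartiles 2 and 16) over all genes. The part of this composition in the motif matches was not tested. A CCAAT box (CCAAT on either strand) was in 4 of the 7, Tcp1, Cct3, Cct6a and Cct7, against 34.5% of all genes. The ETS motif CCGGAAG was in Cct2 and Cct8, against 7.05%. A heat shock element core in the form TTCNNGAA was in Cct5 (7.10% of all genes), and the form GAANNTTC was in none of the 7 first windows (6.78%). Cct2 and Cct5 each had a second window. That of Cct2 held GAANNTTC and a GC box, and that of Cct5 held neither. No window of the 7 held CACGTG (6.05% of all genes), the NRF1 motif (0.781%), AAGATGGC (1.59%), TGACGTCA (1.62%) or TATAAA (12.97%) on either strand. The sequences of Cct2, Cct8 and Cct3 are shown because, in the deletion comparison described next, Cct8 and Cct3 fell and Cct2 did not pass the test. In capitals are matches to the GC box, CCAAT and ETS motifs. The sequences run 5′ to 3′ on the gene's strand and end at the base before the RefSeq start of the first window. They cover chr10:117063853-117064102 on the minus strand, chr16:87495870-87495969 on the minus strand and chr3:88297035-88297134 on the plus strand.
Cct2: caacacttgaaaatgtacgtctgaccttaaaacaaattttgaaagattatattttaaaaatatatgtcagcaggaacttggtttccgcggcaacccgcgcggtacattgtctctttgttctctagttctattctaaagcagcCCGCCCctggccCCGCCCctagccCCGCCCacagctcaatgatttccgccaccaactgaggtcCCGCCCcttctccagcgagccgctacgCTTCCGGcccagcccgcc
Cct8: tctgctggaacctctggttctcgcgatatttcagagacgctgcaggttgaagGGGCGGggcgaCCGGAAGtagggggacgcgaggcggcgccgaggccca
Cct3: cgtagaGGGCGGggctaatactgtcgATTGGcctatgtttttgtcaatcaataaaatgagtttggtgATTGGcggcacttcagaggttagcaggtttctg
The motifs overlap no other motif in these stretches. The 4 GC boxes of Cct2 and its ETS match are read on the opposite strand, as are both CCAAT matches of Cct3.

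In the maternal deletion, 7 of the 8 subunits were lower than in wild type and none was higher, while Cct2 did not pass the test. Calls rest on edgeR's quasi-likelihood test with Benjamini-Hochberg adjusted p below 0.05, which called 26.4% of the 8518 genes tested lower, 30.3% higher and 56.6% in all. Against that background, the median log2 fold change over the 8 subunits was -1.67 and over all genes 0.18. Each library held the RNA of a whole embryo. CPM is relative to the library's own total, so these values do not give the amount of RNA per embryo. The summed level of the 8 subunits ran from 191 to 2121 CPM with a median of 471 CPM in the maternal deletion, and from 523 to 3307 CPM with a median of 1526 CPM in wild type. In the deletion, 27 of 28 libraries lay below the wild-type median, 17 lay below the lowest wild-type library, and the exception was the library in well A04.

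**Figure D1:**
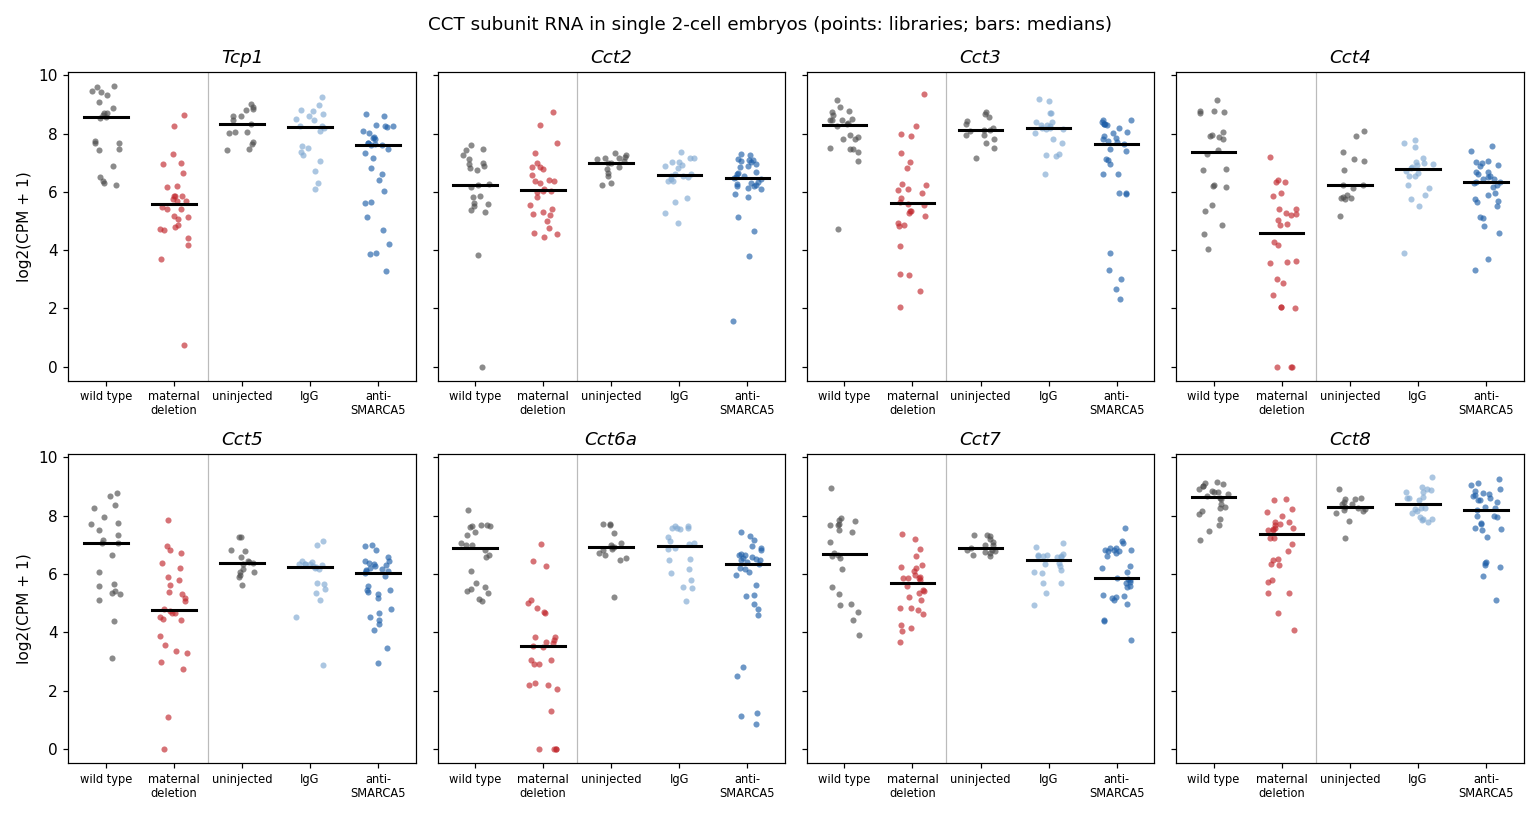
Level of each CCT subunit as log2(CPM + 1) on the vertical axis, 1 panel per gene, for the wild-type, maternal deletion, uninjected, IgG and anti-SMARCA5 libraries on the horizontal axis. Points are libraries and black bars medians. The maternal deletion bar sits below the wild-type bar by the widest margin for Cct6a (10.5 against 119 CPM) and by the smallest for Cct2 (65.8 against 74.8 CPM).

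Cct4 and Cct6a fell most. Cct4, which lies beside Cct2 in the ring and is among the subunits that bind and hydrolyse ATP readily, was at 0 to 146 CPM with a median of 23.3 CPM in the maternal deletion and at 15.4 to 568 CPM with a median of 164 CPM in wild type. All 28 deletion libraries lay below the wild-type median, 12 of them below the lowest wild-type library. The log2 fold change was -2.64 (SE 0.45, edgeR adjusted p = 3.93e-06). Cct6a, the zeta subunit, had a median of 10.5 CPM (0 to 129) in the deletion and 119 CPM (32.5 to 290) in wild type. Of the 28 deletion libraries, 24 lay under the lowest wild-type library. Of the 22 wild-type libraries, 9 lay above the highest deletion library, which was A04. Its log2 fold change was -2.55 (SE 0.46, edgeR adjusted p = 7.80e-06). Cct6a was at 0 counts in 4 deletion libraries and Cct4 in 3, and at or under 3 counts in 7 and 6 libraries.

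Tcp1, the subunit after which the whole family is named, had a median of 47.5 CPM (0.663 to 395) in the maternal deletion and 377 CPM (74.7 to 793) in wild type. Of the 28 deletion libraries, 22 lay below every wild-type library, and the highest was A04. The log2 fold change was -2.28 (SE 0.37, edgeR adjusted p = 1.16e-06). Part of the Tcp1 body is shared with Mrpl18, a mitochondrial ribosomal protein gene on the other strand, which was higher in the deletion (log2 fold change 1.09, SE 0.32, edgeR adjusted p = 0.0035).

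Cct5 and Cct3 fell by a similar amount. Cct5, the epsilon subunit, had a median of 26.1 CPM (0 to 228) in the maternal deletion and 134 CPM (7.72 to 437) in wild type. Its groups overlapped widely, with 4 deletion libraries under the lowest wild-type one. On the log2 scale Cct5 fell by 1.74 (SE 0.42, edgeR adjusted p = 0.00043). Cct3, the gamma subunit, had a median of 48.0 CPM (3.16 to 651) against 314 CPM (25.6 to 570). The highest value of both groups was that of A04, and 27 of the 28 deletion libraries lay below the wild-type median. Its log2 fold change was -1.59 (SE 0.38, edgeR adjusted p = 0.000434).

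Cct8 and Cct7 had the smallest falls that passed the test. Cct8, the theta subunit, had a median of 166 CPM (15.8 to 384) in the maternal deletion and 397 CPM (144 to 568) in wild type, and all 28 deletion libraries lay below the wild-type median. Cct8 fell by 1.25 on the log2 scale (SE 0.25, edgeR adjusted p = 5.21e-05). Cct7, the eta subunit, had a median of 50.9 CPM (11.6 to 165) against 102 CPM (13.9 to 500). Its groups overlapped over most of their range, with 25 of 28 deletion libraries below the wild-type median. The log2 fold change was -1.27 (SE 0.32, edgeR adjusted p = 0.000835).

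Cct2, the beta subunit, was the one whose groups lay over each other. It ran from 21.0 to 426 CPM with a median of 65.8 CPM in the maternal deletion, and from 0 to 195 CPM with a median of 74.8 CPM in wild type. Of the 28 deletion libraries, 15 lay below the wild-type median and 13 above it. The log2 fold change was 0.06 (SE 0.34, 95% confidence interval -0.61 to 0.72, edgeR adjusted p = 0.897). The interval of every other subunit ended below that of Cct2, the nearest being Cct7 at -1.91 to -0.64, although a difference between subunits was not tested.

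**Figure D2:**
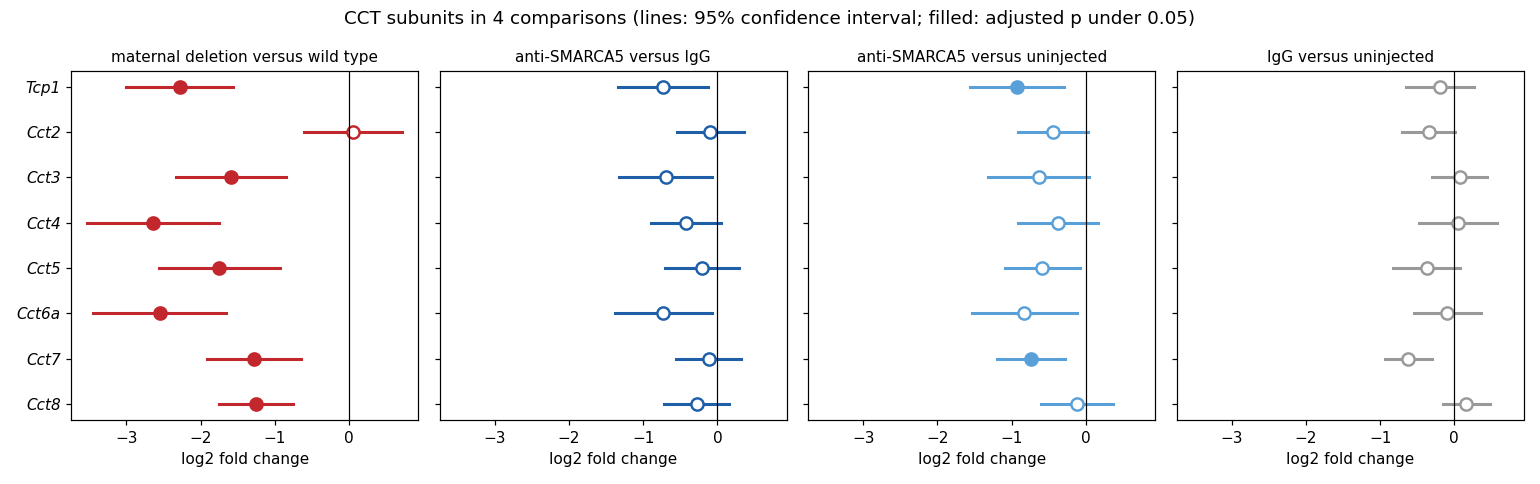
Log2 fold change (horizontal axis) of each subunit (rows) in 4 comparisons, with 95% confidence intervals as lines. Filled points have an edgeR adjusted p under 0.05: 7 in the deletion comparison, 2 for anti-SMARCA5 against uninjected and 0 in the other 2.

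The makeup of the subunit RNA shifted with these unequal falls. Cct2 supplied a median of 5.19% of the summed CPM in wild type (0 to 9.73%) and 14.3% in the maternal deletion (4.35 to 57.0%). Cct6a went the other way, from 6.93% (3.26 to 11.8%) to 2.06% (0 to 8.10%). Tcp1 made up 18.7% in wild type and 10.7% in the deletion, and Cct8, the largest single share in both, 22.3% and 30.3%. Per kilobase of annotated transcript, the wild-type order of median levels was Cct8 (166 CPM per kb), Cct3 (159), Tcp1 (154), Cct5 (72.3), Cct4 (66.1), Cct6a (48.7), Cct7 (41.8) and Cct2 (38.2). The top 3 changed places between embryos, with Cct8 above Cct3 in 13 of 22 libraries and Cct3 above Tcp1 in 12, while Tcp1 was above Cct5 in 19. In the deletion the order was Cct8 (69.4 CPM per kb), Cct2 (33.6), Cct3 (24.3), Cct7 (20.9), Tcp1 (19.4), Cct5 (14.1), Cct4 (9.39) and Cct6a (4.26). Cct2 thus stood last in wild type, although Cct7 was above it in only 13 of 22 libraries. In the deletion Cct2 stood next to Cct8, yet it exceeded Cct3 in only 14 of the 28 libraries. The annotation gives Cct6a no coding transcript, and the length of its longest transcript was used.

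**Figure D3:**
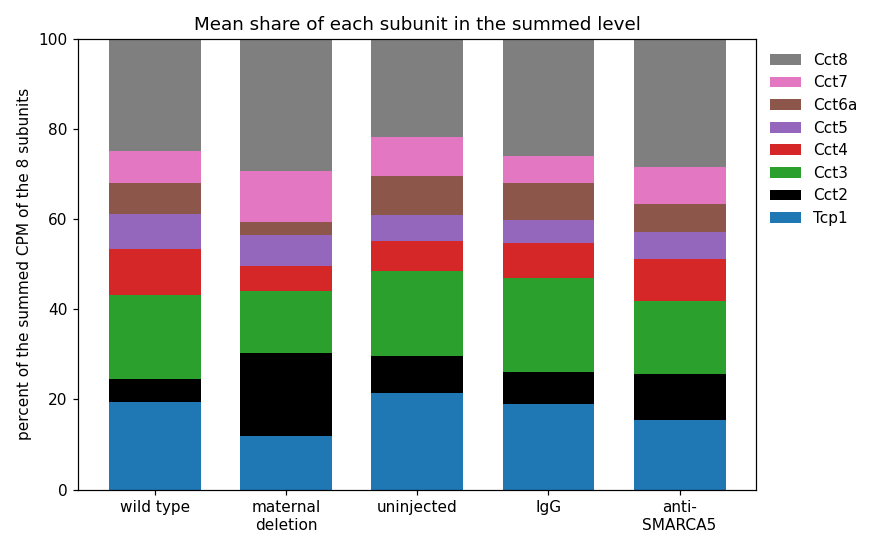
Mean share of each subunit in the summed CPM of the 8 subunits (vertical axis, percent, starting at 0) for the 5 groups. The black segment, Cct2, has a mean of 18.4% in the maternal deletion and 5.10% in wild type.

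The fall held in both pools of embryos for 5 subunits. Fitted within replicate 2 (15 deletion and 14 wild-type libraries), the same 7 subunits were called lower, where 15.7% of genes were. Within replicate 1 (13 and 8 libraries), 5 were called lower, where 20.2% of genes were: Tcp1, Cct3, Cct4, Cct6a and Cct8, with log2 fold changes from -2.99 for Cct6a to -1.39 for Cct8. Cct5 was at -1.20 there (edgeR adjusted p = 0.086) and Cct7 at -0.12 (edgeR adjusted p = 0.847), against -1.37 for Cct7 in replicate 2. The test of the difference between replicates did not pass for any subunit, where 0.763% of genes did in edgeR (65 of 8518, and 1366 genes at an unadjusted p under 0.05). For Cct7 that difference was -1.40 (SE 0.58, edgeR adjusted p = 0.208). The pools also differed in level: the median summed CPM in wild type was 901 in replicate 1 and 2266 in replicate 2, and in the deletion 316 and 657. The replicates were on different sequencing lanes, so pool and lane cannot be told apart. Without A04, the same number of subunits, 7, was called lower, as it was without A04 and the wild-type libraries G05 and H05, which had the 2 lowest Smarca5 levels of the wild type (153 and 172 CPM) and Gdf9 at 627 and 287 CPM against a group median of 52.2 CPM. The count was 7 without A04 and H09 as well. A fit with a block for the replicate gave 7 too, where 25.8% of genes were called lower. A minimum of 500000 counts per library also left 7 called.

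**Figure D4:**
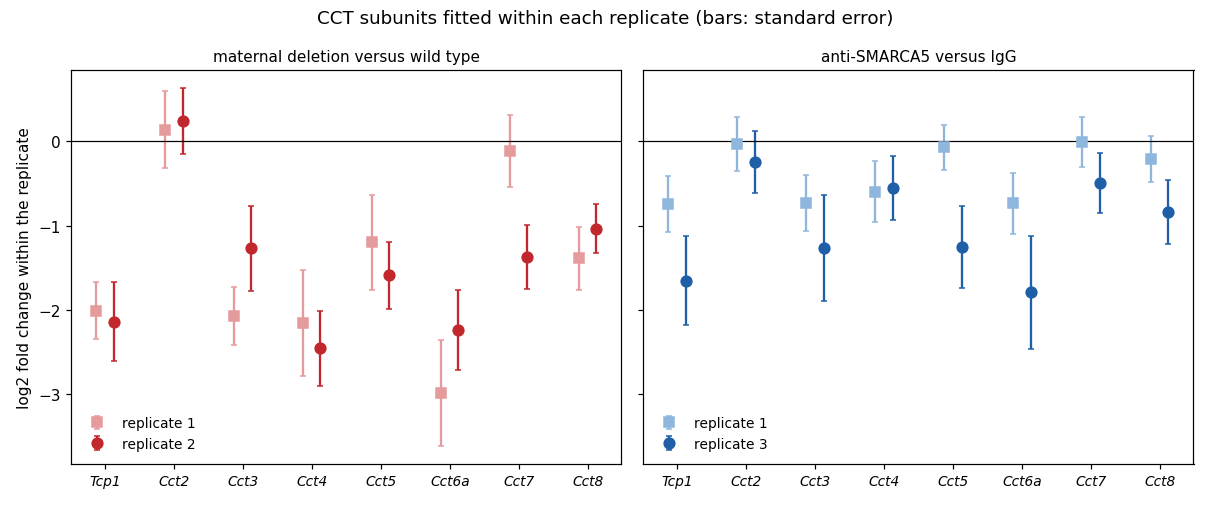
Log2 fold change of each subunit fitted within a replicate number (vertical axis), for the deletion comparison on the left and anti-SMARCA5 against IgG on the right, with the standard error as bars. In the left panel Cct7 sits at -0.12 in replicate 1 and -1.37 in replicate 2, while Cct2 sits above 0 in both.

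Markers of stage also differed between maternal deletion and wild type, where 30.3% of all genes were called higher and 26.4% lower. Of 12 stored oocyte transcripts, all 12 were tested and all 12 rose in the deletion, led by Gdf9 (log2 fold change 5.81) and Zar1 (5.63), and their summed level ran from 666 to 36235 CPM against 300 to 4835 CPM in wild type. Of 14 listed genes of the 2-cell stage, 12 were in the tables and 10 were tested. Of these 10, 7 fell, 0 rose and the remainder did not pass. The largest falls were in Obox3 (-3.87) and Tdpoz4 (-2.45). The summed level of the listed genes ran from 21.4 to 2743 CPM, against 329 to 3228 CPM in wild type. None of the 12 cumulus, 3 sperm or 5 blastocyst markers passed the filter, so they were not tested. The summed cumulus markers had a median of 26.6 CPM (0 to 91.3) in the deletion and 0.191 CPM (0 to 45.5) in wild type. For the blastocyst markers the median was 25.6 CPM (0 to 972) against 0.251 CPM (0 to 38.8), and for the sperm markers 1.08 CPM (0 to 25.2) against 0 CPM (0 to 3.69). At 0 counts in all deletion libraries were Inha and Tnp1. Both were also at 0 in all wild-type libraries, as were Foxl2, Inhba and Cyp11a1. The part of these markers, and of depth, in the subunit result was not tested.

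Genes of proteins that work with CCT were called in both directions, as were genes at large, of which 26.4% were lower and 30.3% higher. These lists are short, and nothing particular to them is read from the counts. Of the prefoldin subunits, which carry clients to CCT, 5 were tested, and Pfdn2 (log2 fold change -1.86) and Vbp1 (-1.26) fell while Pfdn4 (1.20) rose. Of the phosducin-like cofactors, 3 were tested: Pdcl (-1.94) and Txndc9 (-1.74) fell and Pdcl3 (1.80) rose. The cytosolic Hsp70 and Hsp90 list had 14 tested members, of which 9 fell and 0 rose, with a median of -1.19. The largest falls were in Stip1 (-2.37), the adaptor between Hsp70 and Hsp90, and Hsp90ab1 (-1.72), a constitutive Hsp90. The mitochondrial chaperonin, a separate folding machine of the matrix, went the other way: Hspe1 rose (1.17, edgeR adjusted p = 0.00503), and Hspd1 was at 0.59 (edgeR adjusted p = 0.0521). Hsf1, the main heat shock transcription factor, rose (1.42), the other heat shock factor tested did not pass, and no member of the CCT-like list did, of which only Mkks was tested (-0.88, edgeR adjusted p = 0.0655).

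CCT clients were also called in both directions, against the same 26.4% lower and 30.3% higher over all genes. Of 13 tubulins and actins tested, 5 rose and 1 fell, with Tubb2a (3.73) and Tubb2b (2.07) the largest rises and Tubb4b (-1.73) the fall. Of the tubulin cofactors, which act on tubulin after CCT releases it, 4 were tested, and Tbcb (-2.42) and Tbcc (-1.61) fell. Among 13 other clients tested, 5 fell, including Cdc20 (-1.91), an activator of the anaphase-promoting complex, and Vhl (-1.70), and 3 rose, including Strn4 (2.45) and the G protein subunit Gnb1 (1.19). Of the 6 neighbours that share a start region with a subunit, 3 were tested and 0 fell: Mrpl18 rose, Psph (0.90, edgeR adjusted p = 0.187) and Pradc1 (-0.25, edgeR adjusted p = 0.596) did not pass, and the remaining 3 were under the count filter.

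After TrimAway no subunit was called changed between anti-SMARCA5 and IgG embryos, where edgeR called 3.03% of 10447 genes (1.30% lower and 1.73% higher). At an unadjusted p under 0.05, 2762 genes and 3 of the 8 subunits passed, Tcp1, Cct3 and Cct6a, and DESeq2 called 0 of the 8. All 8 log2 fold changes were below 0, from -0.73 to -0.10 with a median of -0.35, against a median of 0.04 over all genes, of which 52.0% were above 0. The summed level ran from 127 to 2136 CPM with a median of 1121 CPM in anti-SMARCA5 embryos and from 719 to 2114 CPM with a median of 1508 CPM in IgG embryos. Of the 31 anti-SMARCA5 libraries, 28 lay below the IgG median and 10 below the lowest IgG library. None of the 12 genes of the 2-cell stage and 11 oocyte transcripts tested was called in edgeR, and their summed levels ran from 21.0 to 4421 CPM and from 1019 to 14257 CPM in anti-SMARCA5 embryos, against 163 to 7057 CPM and 1032 to 10523 CPM in IgG embryos. Their part in the subunit values was not tested.

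Tcp1 had a median of 193 CPM (8.84 to 404) in anti-SMARCA5 embryos and 299 CPM (67.5 to 604) in IgG embryos, and 9 anti-SMARCA5 embryos lay below every IgG library. The log2 fold change was -0.73 (SE 0.31, 95% confidence interval -1.34 to -0.12, edgeR adjusted p = 0.128). Cct6a had a median of 80.3 CPM (0.81 to 174) against 124 CPM (32.4 to 201), and 28 of 31 libraries lay below the IgG median. Its log2 fold change was -0.73 (SE 0.33, edgeR adjusted p = 0.155). Cct3 was at 199 CPM (3.96 to 355) against 293 CPM (97.3 to 586), a difference of -0.70 on the log2 scale (SE 0.32, edgeR adjusted p = 0.153). For these 3 genes, 8 to 9 anti-SMARCA5 embryos lay below every IgG library. Cct8 had more such embryos, 12 of 31, with a log2 fold change of only -0.28 (SE 0.22, edgeR adjusted p = 0.408). Cct2 and Cct7 lay nearest to 0, in an order that changed between alternatives. Cct2 had a median of 88.1 CPM (1.99 to 156) against 94.0 CPM (29.7 to 164) and a difference of -0.10 on the log2 scale (95% confidence interval -0.55 to 0.35, edgeR adjusted p = 0.799).

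The pools differed here as well, with Trim21 RNA in IgG embryos of replicate 3 and none in those of replicate 1. With the replicate number as a block, 3 subunits were called lower, where 13.6% of genes were: Tcp1 (log2 fold change -1.10, edgeR adjusted p = 0.0128), Cct3 (-0.95, 0.035) and Cct6a (-1.14, 0.0169). Within replicate 3 (7 anti-SMARCA5 and 10 IgG libraries), Tcp1 was called lower (-1.65, edgeR adjusted p = 0.0394), where 9.54% of genes were, and Cct6a (-1.79) and Cct3 (-1.27) were not. Within replicate 1 (17 and 10 libraries), 0 subunits were called, where 0.343% of genes were called lower, and Tcp1 was at -0.75. The 10 low libraries came from all 3 pools, 3 of 17 in replicate 1, 2 of 7 in replicate 2 and 5 of 7 in replicate 3. The test of the difference between replicates passed for 0 subunits, where 0.366% of genes did in edgeR (1548 at an unadjusted p under 0.05). IgG libraries of replicate 2 were all under the depth limit.

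Against uninjected embryos, 2 subunits were lower in anti-SMARCA5 embryos, Tcp1 and Cct7, where edgeR called 27.9% of 10750 genes (10.4% lower and 17.5% higher). Tcp1 had a median of 322 CPM (171 to 517) in uninjected embryos, and fell by 0.93 on the log2 scale (SE 0.32, edgeR adjusted p = 0.0276). Cct7 had a median of 56.9 CPM (12.3 to 189) in anti-SMARCA5 and 118 CPM (98.4 to 163) in uninjected embryos, with 20 of 31 libraries below the lowest uninjected one. Its log2 fold change was -0.74 (SE 0.23, edgeR adjusted p = 0.0163). Neither was called without replicate 1 or without replicate 3. Within replicate 1 (17 and 10 libraries) 0 subunits were called, where 4.5% of genes were called lower, and within replicate 3 (7 and 5 libraries) 3 were, Tcp1 (-1.96), Cct5 (-1.51) and Cct7 (-1.24), where 11.5% of genes were. With the replicate block 4 were called lower, where 14.6% of genes were, adding Cct5 (-0.78) and Cct6a (-1.08), and with library totals alone 6 were, where 17.4% of genes were. This comparison and that with IgG share the anti-SMARCA5 libraries. Among the partners, 2 of 5 prefoldin subunits (Pfdn1, Pfdn5) and 5 of 17 Hsp70 and Hsp90 genes fell, led by Cdc37 (-1.22) and Stip1 (-1.17), Hspa4l (1.22) rose, and both mitochondrial chaperonin genes rose (Hspe1 0.80, Hspd1 0.60). Of 12 genes of the 2-cell stage tested, 2 rose and 0 fell; of 11 oocyte transcripts, 3 rose and 1 fell. Of 5 listed blastocyst markers, 2 were tested in the comparisons of anti-SMARCA5 with IgG and with uninjected embryos. The trophectoderm keratin Krt8 rose in both (3.13 and 2.74). Krt18 rose against uninjected embryos (2.04) and did not pass against IgG (1.20, edgeR adjusted p = 0.176).

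Between IgG and uninjected embryos 0 subunits were called, and edgeR called 0% of 9915 genes, with 1440 at an unadjusted p under 0.05 and 261 called by DESeq2. Cct7 was the subunit that lay apart: it had a median of 88.5 CPM (29.7 to 133) in IgG embryos, and 15 of 20 IgG libraries lay below the lowest uninjected library. Its log2 fold change was -0.62 (SE 0.16, edgeR adjusted p = 0.161), and DESeq2 called it (-0.61, DESeq2 adjusted p = 0.0109). The other 7 log2 fold changes were between -0.37 and 0.16. The Cct7 difference between anti-SMARCA5 and IgG embryos was -0.12 (SE 0.22).

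The effect of the deletion exceeded that of anti-SMARCA5 against IgG for 6 of the 8 subunits when the difference itself was tested across the 4 groups, where 19.2% of 12035 genes differed. The difference in log2 fold change was -2.24 (SE 0.51) for Cct4, -1.88 (SE 0.56) for Cct6a, -1.62 (SE 0.49) for Tcp1, -1.60 (SE 0.50) for Cct5, -1.20 (SE 0.39) for Cct7 and -1.04 (SE 0.34) for Cct8, with edgeR adjusted p from 0.00102 to 0.0242. Cct3 did not pass (-0.97, SE 0.51, edgeR adjusted p = 0.166) and nor did Cct2 (0.11, SE 0.41, edgeR adjusted p = 0.882). With the replicate block 2 of the 8 passed, Cct4 and Cct6a. The experiments were on different lanes and used different embryos and controls, and these cannot be told apart from the way SMARCA5 was lost.

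Single embryos were compared with the control medians of their own replicate, because the pools differ in level. In replicate 2, 9 of 15 maternal deletion libraries had all 8 subunits below the wild-type medians, against 2 of 14 wild-type libraries. In replicate 1, 2 of 13 deletion libraries had all 8 below, against 0 of 8 wild-type libraries. For the 7 subunits other than Cct2, the counts in replicate 2 were 14 of 15 against 2 of 14. In replicate 1 they were 5 of 13 against 0 of 8. Those 7 were picked because they were called lower in these same libraries, so their counts are only a description. In the anti-SMARCA5 group all 8 were below the IgG medians in 4 of 17 libraries of replicate 1 and 4 of 7 of replicate 3, against 1 of 10 and 0 of 10 IgG libraries.

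After the means of group and replicate were removed, Pearson correlations of log2(CPM + 1) between subunits had a median of 0.23 over 28 pairs in the maternal deletion experiment (50 libraries, range -0.21 to 0.66, median Spearman rho 0.25). In the TrimAway experiment the median was 0.52 (66 libraries, range 0.16 to 0.81, median rho 0.51), and all 28 pairs were above 0. The points of a pair share library, depth and scaling, and these values are given as a description. The closest pairs were Tcp1 with Cct8 in the deletion experiment (0.66) and Cct6a with Cct8 in TrimAway (0.81). Pairs with Cct2 had a median of 0.20 in the deletion experiment and 0.53 in TrimAway. Against the mean of the other 7 subunits, Cct8 ranked 66th of 8511 genes in the deletion experiment and 36th of 11692 in TrimAway, and Cct6a 1031st and 35th. Cct2 ranked 2600th and 599th, and Cct7 2837th and 573rd. The ranks were 246th and 441st for Tcp1, 787th and 102nd for Cct3, 1821st and 1733rd for Cct4, and 805th and 1019th for Cct5. A subunit's median correlation with all tested genes ran from -0.041 to 0.046 in the deletion experiment. In TrimAway that median ran from 0.0003 to 0.084.

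**Figure D5:**
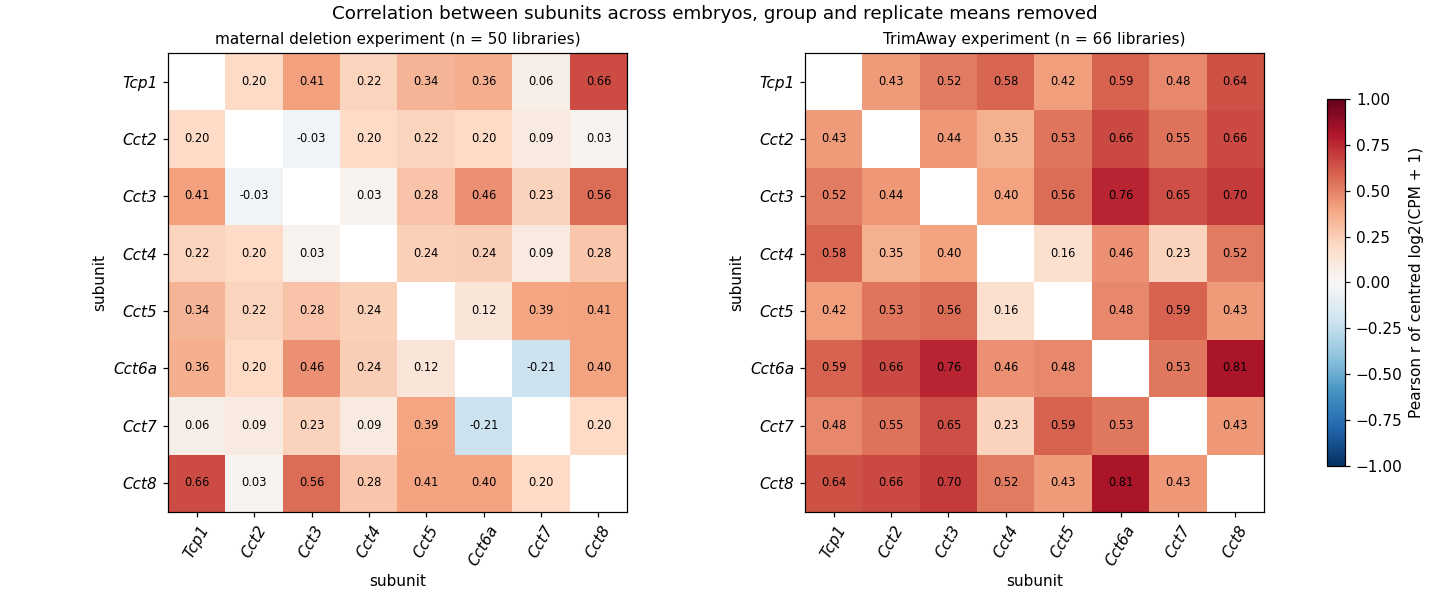
Pearson correlation between subunits (both axes) of log2(CPM + 1) across embryos after removal of group and replicate means, colour from -1 to 1, for the maternal deletion experiment (left, 50 libraries) and TrimAway (right, 66 libraries). The left panel ranges from -0.21 to 0.66 and the right panel from 0.16 to 0.81.

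The genes most like the mean of the 8 subunits across embryos were looked up among those with a mean log2(CPM + 1) of at least 4. In the maternal deletion experiment these were Ddx21 (r = 0.80, rho = 0.77), a nucleolar RNA helicase, Folr1 (r = 0.77, rho = 0.75), a folate receptor, Timd2 (r = 0.75, rho = 0.73), the histone chaperone Set (r = 0.74, rho = 0.70) and Tmem41b (r = 0.73, rho = 0.69), among 5252 genes over 50 libraries. In TrimAway they were Pa2g4 (r = 0.92, rho = 0.91), Gcsh (r = 0.89, rho = 0.84), the ribosomal protein gene Rpl37 (r = 0.88, rho = 0.85), Arfrp1 (r = 0.88, rho = 0.83) and Mak16 (r = 0.87, rho = 0.85), among 6374 genes over 66 libraries. The lists share no gene.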

How the data were processed

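Polyadenylated RNA was measured in single mouse embryos at the 2-cell stage, 1 library per well, from the RNA part of scNMT-seq, per the labels' protocols. The authors deposited 2 tables of raw read counts per gene that were not normalized, and per the file headers the reads were aligned to GRCm38. The submitters' processing notes name Trim Galore 0.6.5, cutadapt 2.3 and HISAT2 2.1.0. Handling of strand, read pairs, duplicates and multiply mapped reads is not given in the sources used here. Odd counts outnumbered even ones among low values: 84269 cells held 3, against 30228 that held 2 and 23199 that held 4. Counting error may thus be larger than single reads give.

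Lines with the same gene identifier were summed. Libraries under 100000 counts (19 embryos) and the 3 wells without an embryo were left out. Comparisons used edgeR 4.0.16 in R 4.3.3 (TMM scaling, filterByExpr, robust quasi-likelihood F test, Benjamini-Hochberg adjustment over all genes tested, threshold 0.05) on the libraries of the groups compared, without the replicate number. Intervals at 95% and standard errors come from the same fit. The procedure was tested on simulated counts. For the deletion comparison (8518 genes), 9.57% of genes changed 2-fold and 61.4% of those changed 4-fold were recovered. For anti-SMARCA5 against IgG (10447 genes), 30.4% and 81.8% were recovered. False calls were 5.97% and 2.68% of the calls. The deletion simulation had far fewer changed genes (94 and 88) than were called in the data (4825). Recovery with so many changed genes was not tested.

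Alternatives were DESeq2 1.42.0, library totals, no low-count filter, other depth limits, a replicate block, and libraries or replicates left out, of which the fits without wells C02 or H09 were added after seeing the data. Replicate numbers name pools of embryos in the design text and lanes in the headers of the deletion table. The deviations of same-numbered group means correlated across genes at 0.53 (deletion), 0.60 (anti-SMARCA5 and IgG), 0.083 (anti-SMARCA5 and uninjected) and 0.43 (IgG and uninjected), with 2 shared numbers each.

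Named genes are the 8 subunits, Smarca5 and Trim21, list members past the threshold with the 2 largest rises and 2 largest falls per comparison, and the 5 genes most alike in each experiment. The neighbouring genes, Hspd1, Mkks, Inha and Tnp1 were added after their values were seen. The members and the lists were chosen with earlier results of these data known. Promoter windows are from RefSeq, and transcript lengths from GENCODE.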

Additional observations from a re-analysis of the deposited data

Results flagged for a closer look

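For 6 subunits the effect of the maternal deletion and that of anti-SMARCA5 against IgG differed when the difference itself was tested with edgeR over the 4 groups. The deletion effect minus the TrimAway effect, on the log2 scale, was -2.24 for Cct4, -1.88 for Cct6a, -1.62 for Tcp1, -1.60 for Cct5, -1.20 for Cct7 and -1.04 for Cct8. Cct4 and Cct6a passed with the replicate block too. Cct7 did not pass without the deletion library in well A04 (-0.94). Of 5 alternatives, the block among them, Cct7 and Cct8 each failed to pass in 2, and Tcp1 and Cct5 each in 1. The largest edgeR adjusted p for Cct8 was 0.0935.

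Libraries left out for depth also held subunit counts. Of the 19 embryo libraries, 11 held more counts of the 8 subunits together than any of the 3 wells without an embryo, which held 0 to 3. The highest of the 19 held 198.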

How the results depend on the processing

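In the deletion comparison 7 subunits were called lower under each of the 11 alternatives except the one without replicate 2, which left 5. The largest edgeR or DESeq2 adjusted p over the 11 was 0.0433 for Cct3, 0.00705 for Cct4, 0.00585 for Cct8 and under 0.001 for Tcp1 and Cct6a. Cct2, which was not called under any, changed sign with DESeq2 (-0.071), library totals (-0.24), no low-count filter (-0.11), every embryo library (-0.16) and without A04, G05 and H05 (-0.060), and was at 0.14 to 0.24 without a replicate. Other sign changes were in values that never passed the test: Cct2 for anti-SMARCA5 against IgG with every embryo library (0.078); for IgG against uninjected, Cct3 (-0.13), Cct4 (-0.25) and Cct8 (-0.094) with library totals and Cct3 with every library (-0.0044); and in differences between replicates, Cct2 (-0.18) and Cct4 (-0.15) with library totals and Tcp1 (0.17) at 500000 counts. Leaving out a replicate took Cct8 for anti-SMARCA5 against uninjected from -0.44 to 0.0099 and, for IgG against uninjected, Tcp1 from -0.31 to 0.014, Cct3 from -0.16 to 0.30, Cct6a from -0.25 to 0.12 and Cct8 from -0.015 to 0.34. The cause of these changes was not tested.

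Counts of subunits moved in 4 comparisons. The replicate block gave 3 for anti-SMARCA5 against IgG, 4 against uninjected and 2 for the difference between deletion and TrimAway. Against uninjected, library totals gave 6, and leaving out a replicate gave 0 to 2. For IgG against uninjected, DESeq2 and the fit with no low-count filter gave 1, Cct7. The block changed no other count of subunits. Of all genes, no low-count filter gave 10416 calls for the deletion, 3010 against IgG, 6184 against uninjected and 881 for IgG, where more genes were tested. For anti-SMARCA5 against IgG (317 calls), DESeq2 gave 1007, library totals 64, 500000 counts 150, every library 623, the block 2691 and the fit without anti-SMARCA5 well C02 521, and for IgG against uninjected DESeq2 gave 261. Leaving out libraries of replicate 2 or 1 gave 2801 to 5035 calls for the deletion, 0 to 591 against IgG, 1 to 2998 against uninjected and 0 to 1 for IgG. With library totals the calls split into 2199 higher and 2623 lower for the deletion (2580 and 2245 with TMM), 17 and 47 against IgG (181 and 136) and 409 and 1874 against uninjected (1885 and 1114).

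Depth limits the low values: Cct6a was at or under 3 counts in 7 deletion libraries and Cct4 in 6, and intervals cover the spread between embryos of 2 or 3 pools. Counts of RNA do not give protein, and the strand of counting bears on Tcp1, Cct6a, Cct7 and Cct8, whose bodies overlap other genes. The fits without C02 and without A04 and H09 together were chosen after seeing the data, and changed no count of subunits.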
